A study of Mus musculus with 3 samples.

Results

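The subject here is the control array of the series, the expression profile of mouse marrow mesenchymal progenitors held in 1% oxygen and given a control hairpin, read on its own scale. It is 1 of 3 arrays in all. The cells carry the label PaS+ and came from bone marrow of adult C56Bl/6 mice aged 8 weeks. Per the labels they were FACS-sorted, grown for 7 days at 1% oxygen in MesenCult complete medium, transduced overnight with a lentiviral vector carrying the control short hairpin RNA (shCTR), and collected 4 days after transduction. The culture period and the interval after transduction are separate entries in the labels. The other arrays held cells given a hairpin against HIF-1a or HIF-2a and are not compared here. The labels do not say how many animals gave the cells, and there was 1 array, so no value has a replicate error and none was tested. No array of cells in room air, of untransduced cells or of freshly sorted cells was analysed here. Low oxygen, the vector and the culture were therefore shared by every value below, and their parts in it cannot be told apart.

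Mesenchymal progenitors of the marrow are the stromal cells that adhere to plastic and grow into fibroblast colonies. They lay down matrix, secrete the cytokines that hold and feed blood stem cells, and can be driven towards bone, cartilage or fat. In low oxygen the prolyl hydroxylases that mark HIF-alpha subunits for destruction slow down, and HIF then binds a short core motif beside genes for glycolysis, iron handling, vessel growth and collagen modification. A level of such a gene on 1 array says how bright it was, not that oxygen set it.

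Values are RMA intensities on a linear scale, as the authors deposited them. Genes were taken from the 28898 of 45141 probe sets that the platform annotation ties to exactly 1 gene, and the brightest probe set stood for each of the 17098 genes. Intensities ran from 0.69 to 1747 with a median of 3.02 and quartiles of 1.28 and 28.0. The highest of 23 control probe sets of nonspecific sequence read 3.47, and a gene under it counts as not detected. By that rule 8336 genes (48.8%) lay above the level and 8762 under it. A gene of 64 or more is called bright, which 2421 genes (14.2%) were, and 192 genes reached 512. Just outside and inside these limits, genes chosen for their nearness were Tnfrsf10b at 3.43 and Hoxc13 at 3.504, and Tbx15 at 63.0 and Lgr4 at 64.04. Brightness depends on the probes as well as on the transcript, so an order of genes is an order on this array and not of transcript numbers. RMA summarises a probe set over all arrays of a study together, so these values are not wholly independent of the other arrays.

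**Figure D1:**
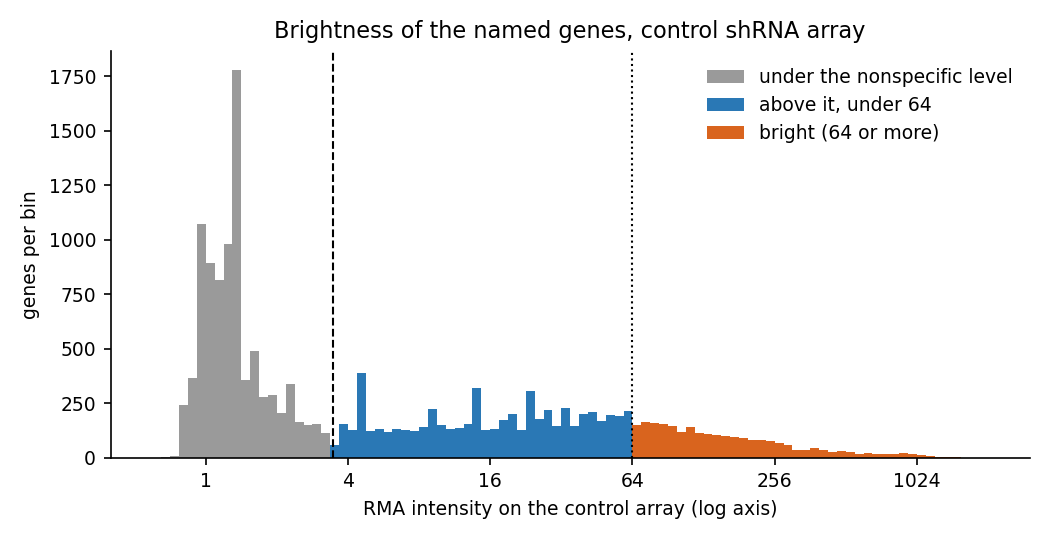
Number of genes by RMA intensity on the control array, with the intensity on a log axis, the nonspecific level of 3.47 as a dashed line and the bright minimum of 64 as a dotted line. Many genes sit in a peak under the nonspecific level, and a long right tail reaches 1747.

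The nonspecific level was set by 1 probe set that stood apart. The other 22 nonspecific probe sets lay between 0.96 and 1.35, and 4231 genes fell between 1.35 and 3.47, so "under the level" includes many genes above nearly all of these controls. Values also repeat: the genes took 7959 distinct values, and 1331 genes shared the value 1.35, the most frequent, and 274 the value 4.64. Brighter values repeat too. Pdgfra and Slc16a3 read exactly the same, 38.2, as did Pfkl and Atp5g1, 128.9. Ties of this kind carry no order. RNA quality could be read from control probe sets at both ends of 2 transcripts, where the signal at the 3′ end over that at the 5′ end was 1.17 for Gapdh (1098 and 941) and 1.38 for actin (1000 and 723).

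The brightest gene was Eif3f, a subunit of a translation initiation factor, at 1747, followed by Mt1, a metallothionein that binds zinc and copper, at 1633. Tmsb10, which holds actin monomers, read 1500 and Fth1, the ferritin heavy chain that stores iron, 1461. Places 5 to 7 went to secreted products: the acute-phase protein Saa3 (1459), the collagen crosslinking enzyme Lox (1375) and Lcn2, which captures bacterial iron carriers (1345). The 30 brightest genes further held Ramp2, an accessory protein of the adrenomedullin receptor (1303), the poly(A)-binding protein Pabpc1 (1216), the elongation factor Eef1a1 (1210), the intermediate filament Vim (1204), Ldha, which makes lactate (1149), Gapdh (1126) and the peroxidase Prdx1 (1118). The last of them included the protease inhibitor Timp1 (1099), the mitochondrial protein Fam162a (1078), Prl2c2 of the prolactin family (1078), the protease Mmp3 (1066), the proteoglycan Dcn (1064), the esterase Esd (1054) and Prg4, the lubricant of joints (1032). Ribosomal protein genes took the other 9 places, led by Rpl41 at 1342 and Rplp1 at 1234. They also took 45 of the 100 brightest places.

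Some of these leading values rest on 1 probe set among several that differ. The leading probe sets of Eif3f, Mt1, Tmsb10 and Ramp2 carry a name that marks them as able to detect related transcripts. Mt1 read 1633 on that one and 14.7 on its other probe set. Tmsb10 had further probe sets at 220.3 and 2.13, and Eif3f a second at 366.8. Lox was steadier, with 1337 on its second probe set, though the dimmest read 1.11. Fam162a had a second probe set at 4.64, and Esd had further ones at 9.44 and 6.05. Ramp2 read 1303, 747.2 and 1.87 on its own probe sets, and 4 further probe sets annotated to both Ramp2 and the nuclear long RNA Malat1 lay between 37.9 and 885.1. The share of signal that belongs to Ramp2 there was not tested. Over all 7179 genes with several probe sets, 4626 were above the level by their brightest one, and in 2981 of these the dimmest was under it. Genes with more probe sets were more often above the level: 37.4% with 1 probe set, 58.4% with 2, 70.9% with 3 and 77.1% with 4 or more.

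The labelled cell type was checked first. Cd81, a tetraspanin, read 582.3 on its only probe set, and Cd44, the hyaluronan receptor, read 500.5, 289.6, 63.3 and 1.05 on its 4. Pdgfra, the platelet-derived growth factor receptor used to sort such cells, was dimmer, at 38.2 on 1 probe set, above the nonspecific level and under the bright minimum. Ly6a, the other usual sorting antigen, has no probe set in the annotation used and was not analysed here. Of 18 mesenchymal progenitor markers on the array 15 lay above the level and 7 were bright, beside 48.8% and 14.2% of all genes, and their median was 37.3 against 3.02 over all genes. The other bright ones were the tetraspanin Cd9 (474.9), the homeobox factor Prrx1 (419.2), the ecto-nucleotidase Nt5e (407.1), the integrin chain Itgb1 (214.8) and Cd34 (115.3). Thy1 and Eng, which also define such cells, were dim, at 13.1 and 16.2. Lepr read 4.47, and Nes, Ngfr and Mcam were under the level at 2.27, 1.21 and 1.07.

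Markers of other cells that marrow could bring along were mostly under the level, beside 51.2% of all genes. None of 10 lymphoid, 9 erythroid and megakaryocyte, 7 blood stem cell, 9 epithelial and 8 hepatocyte markers lay above it. Of 17 haematopoietic and macrophage markers 2 did, the lipopolysaccharide co-receptor Cd14 (93.4) and the surface antigen Ly6c1 (82.7), while the pan-leukocyte Ptprc, the macrophage receptor Csf1r and the myeloid factor Spi1 were all under. Of 14 endothelial markers Egfl7 alone was above, at 4.64, and the endothelial cadherin Cdh5 and the receptor Kdr were under. Smooth muscle actin Acta2 read 373.6, on a probe set open to related transcripts, and Tpm2 316.0, but the mature smooth muscle genes Myh11, Cnn1 and Des were under. In RNA of a whole culture, fewer cells of a type and less RNA per cell cannot be told apart.

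**Figure D2:**
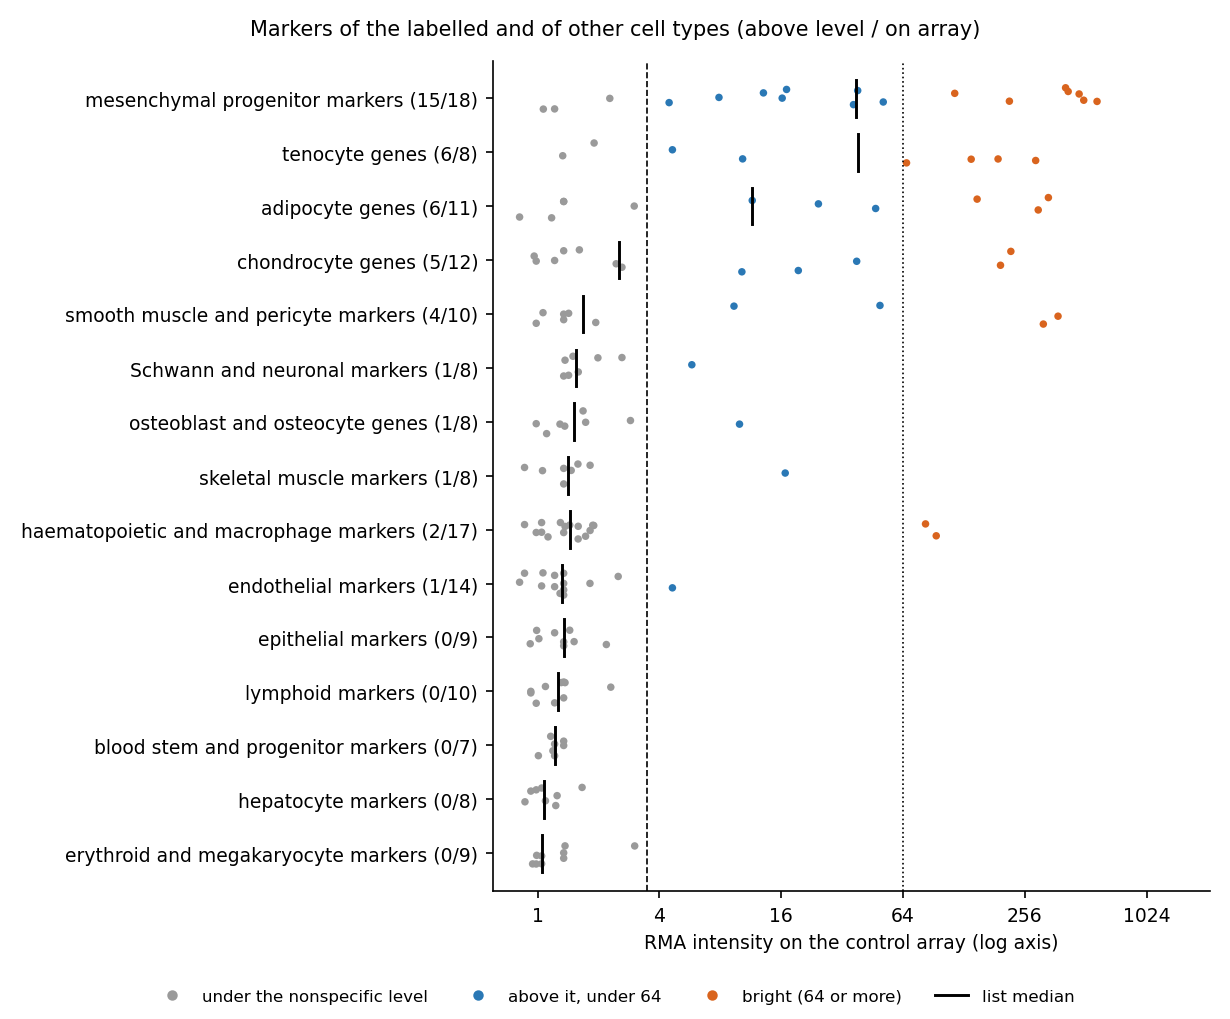
RMA intensity on the control array (log axis) of markers of the labelled cell type and of other cell types, 1 point per gene, with a bar at each list's median and the count above the nonspecific level over the count on the array beside each name. The progenitor and tenocyte lists have medians of 37.3 and 38.5, and the lymphoid, erythroid, blood stem cell, epithelial and hepatocyte lists have no point to the right of the dashed line at 3.47.

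Genes of the lineages such cells can enter are set beside the 48.8% above the level and 14.2% bright among all genes. The shares above were 41.7% for cartilage and 54.5% for fat, both near that of all genes. The bone share lay under it and the tendon share over it. The lists are small, so their counts are given as values and do not rank the lineages. For bone, 8 of 13 listed genes could be read, and Runx2, Spp1 and Alpl have no probe set in the annotation used. Of the 8 only the growth factor Bmp2 (9.95) was above the level, and the osteoblast factor Sp7 and the matrix protein Ibsp were under. For cartilage 5 of 12 were above, with the matrix protein Comp at 218.4, the collagen Col2a1 at 194.1 and the master factor Sox9 at 37.8, while the aggrecan gene Acan was under. For fat 6 of 11 were above: Cebpb (334.7), the fatty acid carrier Fabp4 (298.1), the lipase Lpl (148.7), Dgat2 (46.9), the master factor Pparg (24.4) and Cebpa (11.5). The hormones of mature fat cells, Adipoq and Lep, and the resistin gene Retn were under. For tendon 6 of 8 were above, among them the immediate early factor Egr1 (289.6), Fmod (139.0), Thbs4 (66.6) and the tendon factor Scx (10.3), with Tnmd and Mkx under.

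Genes in the lists of cell functions were mostly bright, though 272 of the 500 brightest genes were in no list. Over 16 function lists, 360 of 400 genes (90.0%) were above the level and 283 (70.8%) bright, beside 48.8% and 14.2% of all genes. The cytosolic ribosomal proteins were brightest, with a median of 865.5 and 64 of 68 bright. The actin cytoskeleton list, which also holds the intermediate filament Vim, followed at a median of 441.0 with 20 of 21 bright. It was led after Tmsb10 and Vim by Actb (959.7) and Actg1 (958.7). Iron and antioxidant genes had 16 of 17 bright, among them the ferritin light chain Ftl1 (803.0), haem oxygenase Hmox1 (604.7) and thioredoxin Txn1 (603.5). Lysosomal genes had 13 of 16 bright, led by the cathepsin Ctsl (722.1), with the leukocyte cathepsin Ctss under the level.

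Mitochondrial genes were bright in this low-oxygen culture. Of 77 nuclear genes of the respiratory chain and ATP synthase 73 were above and 69 bright, beside 48.8% and 14.2% of all genes. Their median was 174.5, and Cox6a1 led at 847.4. The 4 under the level were Cox6a2, Cox7b2, Cox8b and Cox8c. All 16 genes of the tricarboxylic acid cycle were above and 12 bright, from the malate dehydrogenase Mdh2 at 449.5 down to Ogdh at 36.7. Proteasome subunits had 29 of 37 bright, but the interferon-inducible subunits Psmb8 (3.61) and Psmb9 (3.57) barely cleared the level.

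All 16 genes of glycolysis and lactate handling were above the level and 14 were bright, beside 48.8% and 14.2% of all genes. Their median was 237.7. After Ldha and Gapdh came the phosphoglycerate kinase Pgk1 (836.3), the aldolase Aldoa (725.6), the pyruvate kinase Pkm (711.2) and the triosephosphate isomerase Tpi1 (669.1). The glucose transporter Slc2a1 read 538.3. Dimmest of the list were the lactate exporter Slc16a3 at 38.2 and Pfkm at 34.01. Gapdh, Aldoa and Tpi1 were read on probe sets that can detect related sequences.

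Genes known to be induced by low oxygen, outside glycolysis, were equally complete. All 23 were above the level and 21 bright, beside 48.8% and 14.2% of all genes, with a median of 382.2. Like that of glycolysis, this list was chosen with earlier results of these data known, so its completeness tests nothing. Next to Lox and Fam162a stood the mitophagy receptor Bnip3 (867.3), the disulphide-forming oxidase Ero1a (735.6), the mitochondrial Higd1a (628.3) and the collagen lysyl hydroxylase Plod2 (618.6). The HIF subunit Hif1a itself read 352.1 on 1 probe set and 1.21 on the other. Epas1, which encodes HIF-2a, read 5.09 and 1.35, and Hif3a was under the level. The prolyl hydroxylases Egln3 (406.5) and Egln1 (294.3) were bright, Egln2 (55.2) and the ubiquitin ligase subunit Vhl (51.1) were not, and the asparagine hydroxylase Hif1an read 6.80. These are levels in 1 condition, and no induction was measured.

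HIF is known to bind a core of ACGTG or GCGTG, so promoters of these genes were read for letters of that kind. Promoters span 250 bases before to 50 after the start (RefSeq, GRCm38.p6), and 11013 genes on the array have exactly 1. Motifs were searched on both strands. In all, 11 motifs were looked at, and those shown were picked after their matches had been seen. The core ACGTG or GCGTG occurs in 43.1% of all promoters, 55.6% of those of genes on the array, 69.9% of those of bright genes and 13 of 14 of the hypoxia-induced genes with 1 promoter. The longer form ACGTGC or GCGTGC occurs in 16.03% of all promoters and 22.9% of those of genes on the array. It occurs in 12 of these 14 and in 5 of 8 glycolysis genes. The 14 were listed for known induction by low oxygen, so their matches test nothing. Both forms hold CG, and the median GC content was 69.0% in the 14, 62.0% in bright genes and 52.3% in all promoters. The longer form was commoner in bright promoters at large: it lay in 30.9% of promoters of bright genes, 29.6% of those above the level and not bright, and 16.1% of those under it. It can overlap the E-box, and CACGTGC lay in 2 of the 14. Members with 1 promoter and a match before the start are printed to show what the matches look like beside bright genes, the 6 brightest such members of the first list and the 2 brightest of the other. Lox and Ldha, which lead the lists, are not among those with 1 promoter. Each match is in capitals on whichever strand it reads.
Fam162a, chr16:36071580-36071639, minus strand: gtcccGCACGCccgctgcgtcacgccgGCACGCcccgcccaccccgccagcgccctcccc
Bnip3, chr7:138909509-138909568, minus strand: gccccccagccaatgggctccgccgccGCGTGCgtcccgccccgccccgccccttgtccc
Ero1a, chr14:45318604-45318663, minus strand: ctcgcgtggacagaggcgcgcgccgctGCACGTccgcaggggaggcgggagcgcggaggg
Higd1a, chr9:121857834-121857893, minus strand: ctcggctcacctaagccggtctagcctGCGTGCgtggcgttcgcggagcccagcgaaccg
P4ha2, chr11:54100819-54100878, plus strand: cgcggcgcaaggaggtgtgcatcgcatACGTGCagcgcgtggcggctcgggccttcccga
Cited2, chr10:17723049-17723108, plus strand: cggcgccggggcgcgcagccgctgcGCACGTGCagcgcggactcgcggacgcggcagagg
Gapdh, chr6:125165785-125165844, minus strand: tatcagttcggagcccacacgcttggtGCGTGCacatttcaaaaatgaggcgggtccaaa
Pgk1, chrX:106186941-106187000, plus strand: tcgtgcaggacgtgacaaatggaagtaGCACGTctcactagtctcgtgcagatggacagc

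These stretches are 60 bases long and lie between 179 and 3 bases before the start. In Fam162a the window holds 2 matches, both read on the opposite strand, within 78 bases of the start. Cited2, a HIF antagonist that competes for a coactivator and read 577.0, carries 2 matches that overlap in a palindrome, farther from the start than the others. P4ha2, a collagen prolyl hydroxylase at 615.2, reads ACGTGC on the printed strand, and Ero1a and Pgk1 read it on the opposite one. A match is a description of letters and not a binding site.

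Promoters of bright and of undetected genes differed in composition over the same windows of 300 bases. The letters GGGCGG, which the SP and KLF factors are known to bind, lay in 72.1% of promoters of bright genes, 68.9% of those above the level and not bright, and 39.6% of those under it. The median ratio of observed to expected CG pairs was 0.82, 0.80 and 0.40 in the same order, and the median GC content 62.0%, 61.7% and 54.7%. TATAAA went the other way between bright genes (9.15%) and those under the level (13.5%), with 6.55% in between. TGACGT, the core of the cyclic AMP element, lay in 15.96% of promoters of bright genes and 6.86% of those under. CCAAT lay in 39.1% and 38.6%, with no such gap. A start at a cytosine followed by pyrimidines, 5 bases in all, which marks messages of the translation machinery, was found in 10 of 45 ribosomal protein genes and in 2.47% of all promoters.

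Cell cycle genes were dimmer than the housekeeping lists. Of 23 replication genes 15 (65.2%) were above the level, beside 48.8% of all genes, and their median was 6.00 against 3.02 over all genes. Only the sliding clamp Pcna (227.8) and the ribonucleotide reductase subunit Rrm2 (179.0) were bright (8.7%, beside 14.2% of all genes). Of 19 mitosis genes 14 (73.7%) were above and none bright, with a median of 6.61. They were led by the kinase Cdk1 (38.0) and Ube2c (36.6), with Plk1 and Aurkb under the level. Cell cycle inhibitors and p53 targets were brighter, with 10 of 14 bright and a median of 117.6. Cdkn1a, which encodes p21, read 441.6, and the inhibitors Cdkn2b and Cdkn2a read 191.3 and 143.1. Ccng1, a p53 target, read 524.6 and Mdm2, which degrades p53, 140.9. A value over a whole culture does not say which cells carried each message.

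Protein folding genes of the endoplasmic reticulum were all above the level (19 of 19, 14 bright), from P4hb, a subunit of collagen prolyl hydroxylase, at 743.7 and the chaperone Hsp90b1 at 693.6 down to Pdia3 at 4.64. Cholesterol synthesis was moderate: 9 of 13 genes (69.2%) were above the level, beside 48.8% of all genes, none was bright, and Sqle led at 53.8. Of 15 interferon-induced genes 3 (20.0%) were above, Ddx58 (17.4), Ifit2 (7.30) and Irf7 (3.91), and none of 11 interferon genes was. Some genes under or near the level encode proteins that growing cells need, such as Rps15a (1.38), Hmgcs1 (0.81) and Pdia3. Each was read on 1 probe set, and whether that probe set can detect the transcript was not tested. A probe set annotated to the pseudogene Rps15a-ps6 read 828.4 (a gene picked with its value known).

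Of 407 genes in 16 lists of secreted products 163 (40.0%) were above the level and 89 (21.9%) bright, against 48.8% and 14.2% of all genes. The share above was thus under that of all genes and the share bright over it. Among collagens 17 of 42 chains were above and 13 bright. The fibrillar chains Col3a1 (1030), Col5a2 (830.3) and Col5a1 (332.0) led, and the chains of collagen VI followed, Col6a2 at 276.1, Col6a1 at 275.8 and Col6a3 at 272.7. Col1a1, the main chain of bone and skin collagen, read 130.4. Its partner Col1a2 read 1.89 on its only annotated probe set, which limits what that value says. Of 31 matrix proteoglycans and glycoproteins 24 were above and 16 bright, with Dcn followed by Bgn (953.1), fibronectin Fn1 (944.9), Sparc (901.3 and 504.5 on its 2 probe sets) and Nid1 (755.1). Periostin, Postn, was dim at 4.64, and elastin, Eln, was under.

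Matrix remodelling genes were split. Of 21 metalloproteinases and TIMPs 12 (57.1%) were above and 8 (38.1%) bright, against 48.8% and 14.2% of all genes. The collagenase Mmp13 read 622.7 and the inhibitors Timp2 and Timp3 read 721.2 and 398.9, beside Timp1 and Mmp3 named above. The membrane-bound Mmp14 read 201.6. Matricellular proteins were bright as well, 6 of 10, with Ccn2 at 671.7 and Ccn1 at 431.1. The AP-1 motif TGACTCA and the TATA letters TATAAA lay in 5 and 7 of the 13 promoters of metalloproteinase and TIMP genes, and in 5.17% and 14.8% of all promoters. Both motifs together did not mark brightness: Mmp10, with both, read 14.2, and Mmp1a and Mmp1b, with both, were under the level. The bright members with both before the start were Mmp3 and Mmp13, whose last 100 bases before the start are printed to show how close the motifs sit, with both in capitals on whichever strand they read.
Mmp3, chr9:7445722-7445821, plus strand: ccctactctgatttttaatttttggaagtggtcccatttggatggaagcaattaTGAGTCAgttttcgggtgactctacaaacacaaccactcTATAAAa
Mmp13, chr9:7272414-7272513, plus strand: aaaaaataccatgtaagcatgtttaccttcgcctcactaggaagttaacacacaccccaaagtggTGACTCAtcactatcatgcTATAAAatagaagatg

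Of 36 chemokine genes 14 (38.9%) were above the level and 8 (22.2%) bright, against 48.8% and 14.2% of all genes. The neutrophil attractants Cxcl1 (735.7), Cxcl5 (476.4) and Cxcl2 (266.1) and the monocyte attractants Ccl2 (708.2) and Ccl7 (373.5) led. Cxcl12, which retains blood stem cells in the marrow, read 249.96, 42.5 and 1.66 on its 3 probe sets. The interferon-driven Cxcl9 and Cxcl10 were under the level. The brightest chemokines whose promoters hold the NF-kB motif, found in 5 of 24 chemokine promoters and 4.26% of all, were Cxcl1 and Cxcl2, though Cxcl10 holds it too. Their stretches are printed because both hold the same run in capitals, where the motif reads on both strands and the 2 matches overlap.
Cxcl1, chr5:90891130-90891229, plus strand: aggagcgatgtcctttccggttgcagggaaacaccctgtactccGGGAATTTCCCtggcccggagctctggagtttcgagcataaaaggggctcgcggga
Cxcl2, chr5:90903758-90903857, plus strand: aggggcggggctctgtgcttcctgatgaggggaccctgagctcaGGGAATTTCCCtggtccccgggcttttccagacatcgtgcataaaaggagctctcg

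Among 39 interleukins and haematopoietic cytokines 12 (30.8%) were above and 5 (12.8%) bright, the last near the 14.2% of all genes. Mif, a widely made inflammatory mediator, read 1007 on its brightest probe set and 1.35 and 1.24, both under the level, on the others. Csf1, the growth factor of macrophages, read 556.9. Il6 read 453.5, the stem cell factor Kitl 165.8 and Lif 82.0, with Il11 at 33.5. Kitl had further probe sets at 59.3, 48.5 and 12.8, all above the level. The granulocyte factor Csf3, the lymphoid Il7 and the tumour necrosis factor gene Tnf were under. Of 11 tumour necrosis factor ligands Tnfsf9 (19.7) and the osteoclast factor Tnfsf11 (3.76) were above.

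Growth factor lists differed. In the TGF-beta and BMP list 18 of 36 were above (50%, near the 48.8% of all genes) and 9 bright (25%, against 14.2%), and all of these 9 encode antagonists, follistatin-like or latent binding proteins, or activin: Fstl1 (643.5), the BMP antagonist Grem1 (630.4), the activin subunit Inhba (596.1), Ltbp2 (384.1), Ltbp3 (212.6) and Fst (196.3) led. The ligand genes Tgfb1 and Tgfb2 were under the level and Tgfb3 read 18.4. Among angiogenic factors 13 of 21 (61.9%) were above: the lipase inhibitor Angptl4 (403.8), the EGF-family ligands Ereg (373.0) and Hbegf (159.6), Vegfa (323.3) and Pdgfc (116.7) were bright. Fgf7, a factor for epithelium, read 126.8 and was alone in being bright among 22 FGF genes. None of 32 genes for Wnt ligands, secreted Wnt inhibitors and R-spondins was bright, and the Wnt enhancer Rspo2 (55.2), Dkk3 (42.5) and Wnt5a (20.6) led the 6 above the level. Igfbp4, which holds insulin-like growth factors, read 698.2, while Igf1 itself read 4.08 and Igf2 was under.

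Of 23 acute-phase and complement genes 13 (56.5%) were above the level and 10 (43.5%) bright, against 48.8% and 14.2% of all genes. Behind Saa3 and Lcn2 came haptoglobin, Hp (593.5), the pentraxin Ptx3 (564.9), ceruloplasmin, Cp (245.1), and Saa2 (200.2). The serum amyloid genes are close relatives, and Saa2 was read on a probe set open to related transcripts. The complement C1q genes C1qa, C1qb and C1qc, typical of macrophages, were under. Of 39 serpins, not all of them secreted, 11 (28.2%) were above and 4 (10.3%) bright, both under the shares of all genes. They were led by Serpinf1, which encodes an antiangiogenic factor (700.6), and the collagen chaperone Serpinh1 (523.3). Of 25 hormones and neuropeptides 6 (24.0%) were above and 2 (8.0%) bright, adrenomedullin, Adm (372.6), and the enkephalin precursor Penk (178.2).

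**Figure D3:**
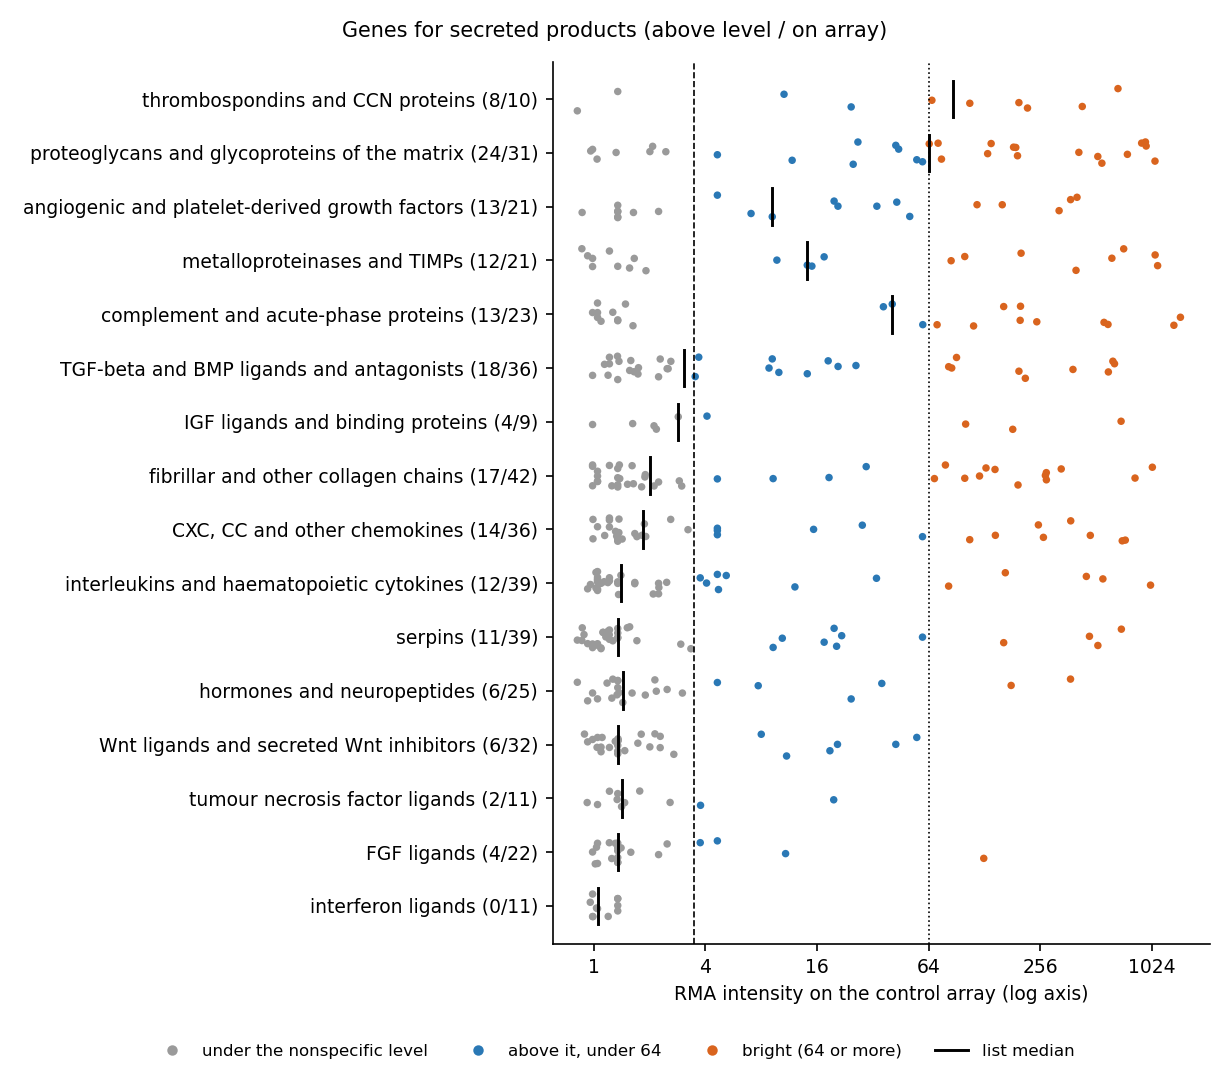
RMA intensity on the control array (log axis) of genes for secreted products, 1 point per gene, with a bar at each list's median and the count above the nonspecific level over the count on the array beside each name. Medians run from 86.6 for thrombospondins and CCN proteins and 64.4 for matrix glycoproteins to 14.2 for metalloproteinases and TIMPs and 2.004 for collagens, 1.85 for chemokines and 1.399 for interleukins, each with some members far to the right.

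Of 306 receptor genes in 12 lists 121 (39.5%) were above the level and 46 (15.03%) bright, against 48.8% and 14.2% of all genes, so the bright share was near that of all genes. None of 39 olfactory receptors, which marrow stroma has no known use for, was above. Of 40 receptor tyrosine kinases 12 were above and 4 bright: the collagen receptor Ddr2 (148.7), Igf1r (95.2), Fgfr1 (85.3) and Ryk (81.6). Integrin chains had 8 of 23 above, with the vitronectin receptor chains Itgav (350.9) and Itgb5 (203.3) beside Itgb1. Of 32 cytokine receptors 18 were above, and the decoy Il13ra2 (215.8), the oncostatin M receptor Osmr (199.6), the interferon receptor chain Ifnar2 (198.0) and the gp130 gene Il6st (151.7) led. Tgfbr3, a coreceptor for TGF-beta, read 345.2, with Bmpr2 at 113.7 and Tgfbr2 at 75.01.

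Among pattern receptors Cd14 (93.4), Tlr2 (88.5), Tlr4 (26.2) and its partner Ly96 (20.4) were above the level, so each gene of the lipopolysaccharide receptor named here was detected, while Tlr3, Tlr7 and Tlr9 were under. In the TNF receptor family Tnfrsf12a, the receptor of TWEAK, read 251.2 and Tnfrsf22 243.8. For Wnt reception Lrp1 (127.8) and Fzd7 (113.3) led. Chemokine receptors were nearly all under the level, 16 of 18, beside 51.2% of all genes. The bright exception was the scavenging receptor Ackr3 at 437.4. Of 8 Notch receptors and ligands Notch3 alone was above (12.5%, beside 48.8% of all genes), at 9.35. Of 33 G-protein-coupled receptor genes and their partners 14 (42.4%) were above, near the share of all genes. Among them the thrombin receptor F2r read 210.2, behind Ramp2. Surface antigens were mostly detected, 26 of 31 (83.9%), led by Bsg (802.1), a chaperone of lactate transporters.

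Ligands and their known receptors were set side by side in 41 pairs, written after the values had been seen. In 25 pairs the ligand was bright and the receptor had a probe set. The receptor was under the level in 15 of them, above it and not bright in 8 and bright in 2. Of all listed receptor genes 39.5% were above the level, so these counts are near those of receptors at large. Under the level were Kit, the receptor of Kitl, Csf1r for Csf1, Cxcr2 for Cxcl1, Cxcl2 and Cxcl5, Ccr2 for Ccl2 and Ccl7, Kdr and Flt1 for Vegfa, and Fgfr2 for Fgf7. The bright receptors were Ackr3 for Cxcl12 and Il6st for Il6, whose specific chain Il6ra read 7.63. Detected on both sides but dim in the receptor were Pdgfc with Pdgfra (38.2), Ereg and Hbegf with Egfr (14.2), and Adm with Calcrl (21.1). Igf1 (4.08) with Igf1r (95.2) and Tslp (12.2) with Crlf2 (91.5) ran the other way. The pairs share members, and no share over them was tested.

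Of 323 genes in 12 lists of transcription factors and related proteins 180 (55.7%) were above the level and 53 (16.4%) bright, near the 48.8% and 14.2% of all genes. By list medians the AP-1 and immediate early genes (87.2) and the stress factors (50.5) were highest. Of 17 AP-1 and immediate early genes 15 were above and 9 bright. Among them were Ier3 (800.0), an immediate early gene that is not a transcription factor, and the factors Jund (340.9), Egr1 (289.6), Fosl2 (267.1) and Jun (141.4). Of 27 C/EBP, ATF and stress factors 25 were above and 11 bright: after Hif1a and Cebpb came Xbp1 of the unfolded protein response (308.9), Nfe2l2 of the antioxidant response (298.0), Cebpd (282.9) and Atf4 (265.4). In the NF-kB, STAT and IRF list the I-kappa-B family genes Nfkbiz (282.4) and Nfkbia (234.2) led, with Rela at 125.5 and Stat3 at 89.6, and the blood factors Irf4 and Irf8 were under. Inhibitors of differentiation were bright in 3 of their 4 members, Id3 (284.9), Id2 (242.6) and Id1 (171.3), with Id4 at 24.4.

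Factors of mesenchyme and limb were detected at moderate levels. Of 45 such genes 30 (66.7%) were above the level, beside 48.8% of all genes. Only Prrx1 (419.2), Tcf12 (71.7) and Prrx2 (66.9) were bright (6.7%, beside 14.2% of all genes). Many sat just under the bright minimum, among them Tbx15 (63.0), Twist2 (58.8) and Tbx3 (56.1). The Wnt, Hippo and TGF-beta effectors Ctnnb1 (538.4), Wwtr1 (146.5), Yap1 (123.6) and Smad4 (111.8) were bright. In the forkhead family Foxc1 (162.5), which marrow stroma uses to keep its niche, led the 13 of 36 (36.1%) above the level. Sox4 (404.2) was alone in being bright among 20 SOX genes (5.0%). No GATA gene was above the level, and in that list Cbfb, the partner of RUNX factors (111.8), and Elk3 (101.3) were bright, with Runx1 at 52.4. Klf4 (219.4) and the nuclear receptor Nr4a2 (128.9) led their families.

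**Figure D4:**
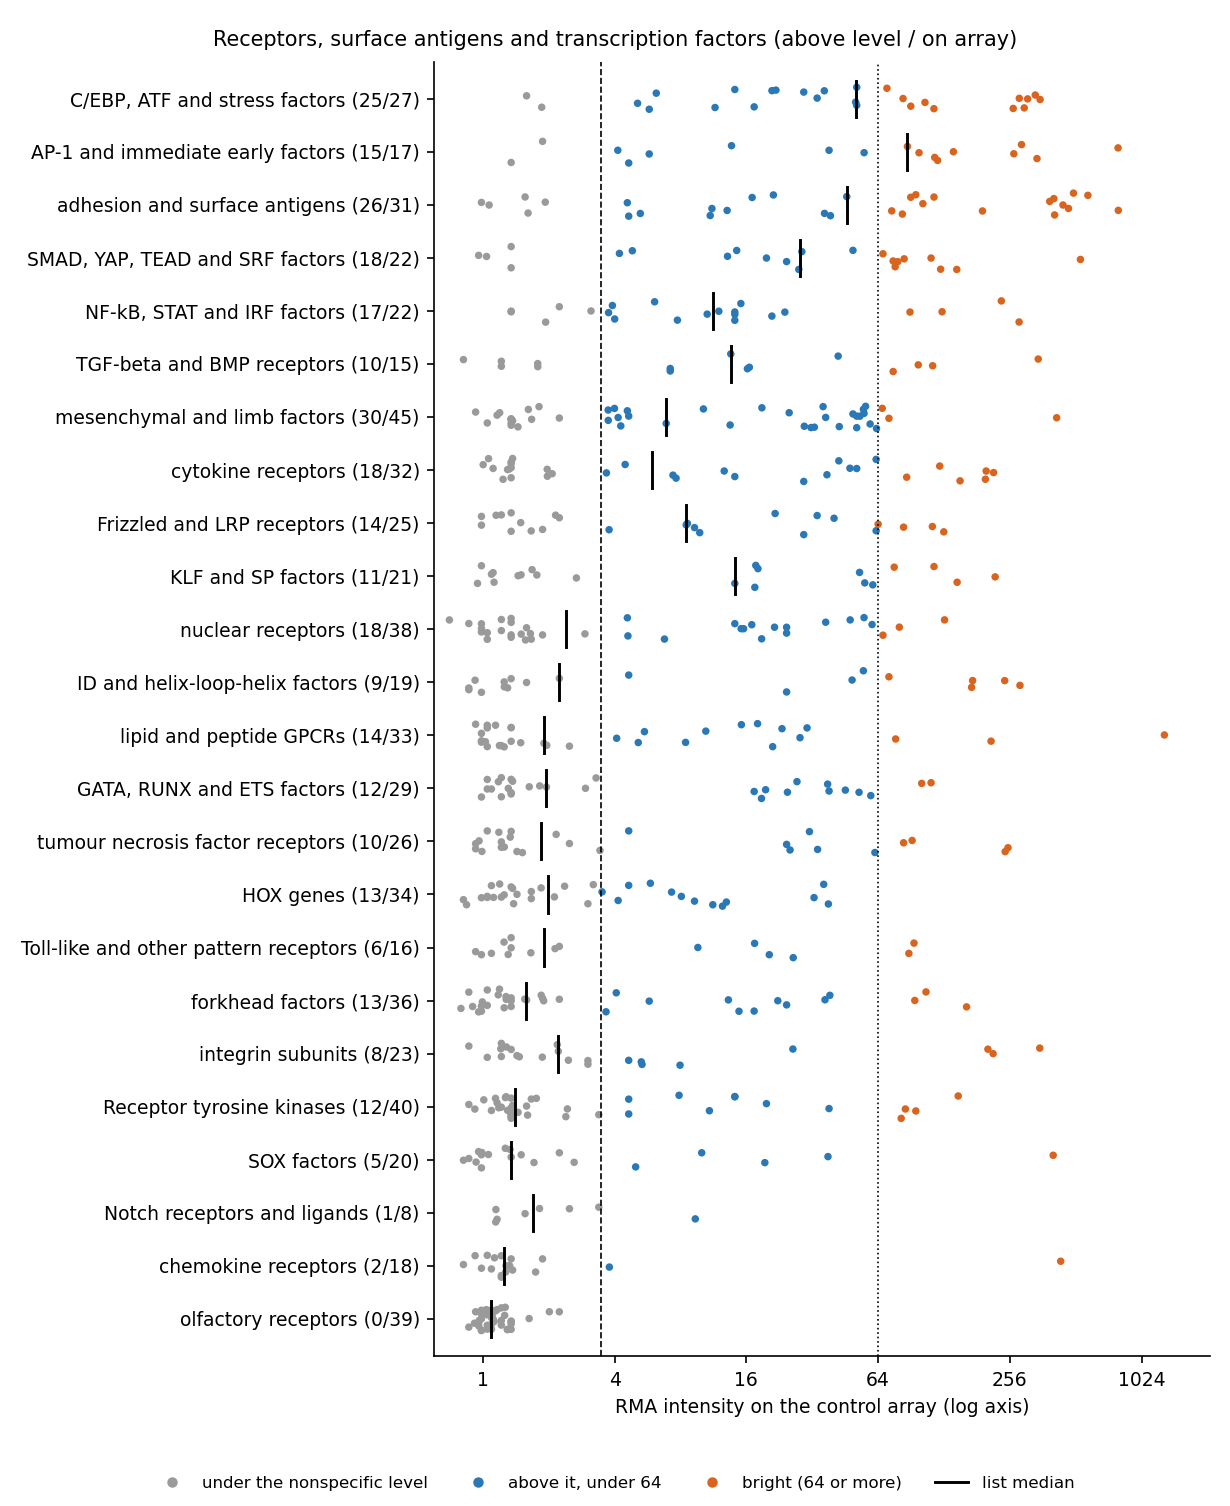
RMA intensity on the control array (log axis) of genes for receptors, surface antigens, transcription factors and related proteins. Each point is 1 gene, and a bar marks each list's median. Beside each name stands the count above the nonspecific level over the count on the array. AP-1 and immediate early genes have a median of 87.2, and the 39 olfactory receptors all lie to the left of the dashed line at 3.47.

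HOX genes record where along the body axis a mesenchymal cell arose. Of 34 on the array 13 (38.2%) were above the level and none was bright, against 48.8% and 14.2% of all genes and 37.4% above among genes with 1 probe set. Counts by cluster and position are small and are given as values. In cluster a 6 of 9 were above, in cluster c 5 of 6, in cluster d 2 of 9 and in cluster b 0 of 10, where the brightest read 3.02. By position, 7 of 10 genes of paralog groups 8 to 10 were above, against 1 of 7 in groups 1 to 3, 3 of 10 in groups 4 to 7 and 2 of 7 in groups 11 to 13. The brightest were Hoxd8 (37.9), Hoxc10 (36.1) and Hoxa10 (32.6), each from a different cluster. Hoxc8 (12.96), Hoxc9 (12.4) and Hoxd9 (11.2) followed. The hindlimb factors Tbx4 (31.6) and Pitx1 (18.8), picked with their values known, were above the level, and the forelimb factor Tbx5 was under.

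**Figure D5:**
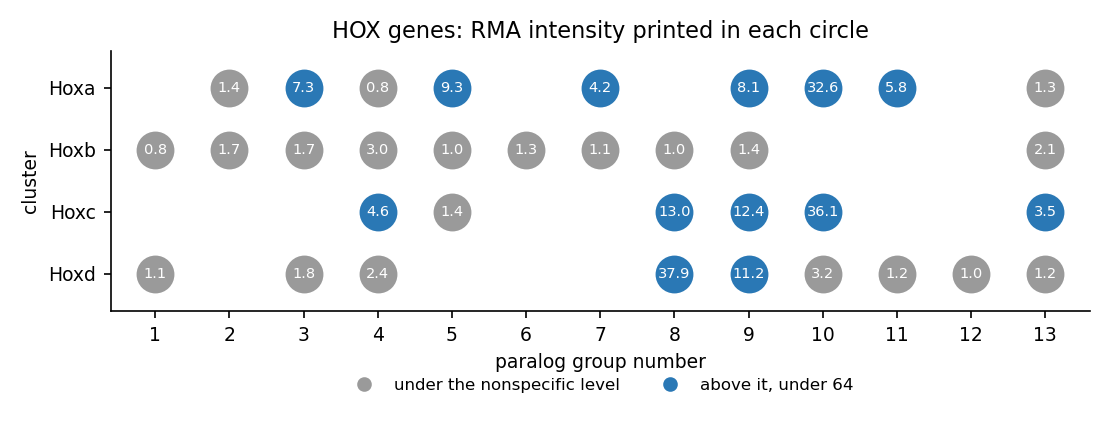
HOX genes by cluster (rows) and paralog group number (columns), with the RMA intensity on the control array printed in each circle, grey where it is under the nonspecific level of 3.47 and blue where it is above. All 10 circles of cluster b are grey, and the highest values, from 32.6 to 37.9, stand in groups 8 and 10; a place without a circle has no gene in the annotation used.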

How the data were processed

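Total RNA (1 µg) was prepared for biotin-labelled Affymetrix arrays, per the labels' protocols. The authors deposited 1 table of RMA intensities on a linear scale, made with RMA per the submitters' processing notes. For its version, settings and probe annotation nothing was given in the sources used here. Signal over the nonspecific probe sets stands in for depth, and 1 array limits the precision.

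Only the control column was used, with no further scaling. Gene names came from the platform annotation, updated through Entrez identifiers (28689 of 28898 probe sets matched) to RefSeq names of GRCm38.p6. Control probe sets (104), probe sets with several genes (551) and unlisted ones (15588) were left out of gene counts. Named genes were the 30 brightest, the sorting markers, Hif1a and Epas1, and up to 6 bright and 6 undetected members of each of 71 lists. The members, lists and limits were chosen with earlier results of these data known. Undetected members of lists defined by a name pattern, and members named for being dim or outside these places, were picked with their values known. Names in the lists were matched through synonyms only where they were not current symbols, and the interleukin and proteasome lists were corrected after values had been seen. Python 3.11.15 and pandas 2.3.3 were used, and the counting was tested on simulated data. No test was run.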

Additional observations from a re-analysis of the deposited data

How the results depend on the processing

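The count of genes above the nonspecific level moved from 8336 to 5355 with the dimmest probe set of each gene, to 15187 with the median nonspecific probe set as the level and to 12567 with the second highest one, a choice added after seeing the data. It stayed within 1.5 times of 8336 with the median probe set, with shared probe sets left out and at a level of 2 times the highest. The count of bright genes moved from 2421 to 1260 with the dimmest probe set, to 3976 at a minimum of 32 and to 1270 at 2 times the minimum of 64. Progenitor markers above the level stayed between 11 and 18 of 18, while the count over all genes ran from 5355 to 15187 of 17098. With the dimmest probe set 1216 of 1519 values of named genes kept their class, and with the median probe set 1398 did. Many counts over the gene lists moved by over 1.5 times: 45 of 70 with the median nonspecific level, 38 of 70 with the second highest, and 53 of 141 with the dimmest probe set. No paired analysis was possible because there was 1 array and no test. Leaving out a replicate was not possible either, and other background corrections or normalizations were not run, since no scanner files were used here. Depth on an array is signal over background: 4231 genes lie between the highest and the second highest nonspecific probe set.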

Other observations

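Probe sets for which the annotation used lists no gene held signal too. Of 15588 such probe sets 2978 (19.1%) were above the nonspecific level and 902 (5.79%) bright, the brightest at 1287, against 42.1% and 10.9% of probe sets with 1 gene. Part of the bright transcriptome of these cells therefore stays unnamed here.

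Long noncoding RNAs were mostly undetected, with 77 of 1175 (6.55%) above the level and 14 bright, against 52.7% and 15.4% of 15599 protein-coding genes. By probe sets with 1 gene, the brightest named ones were Norad (366.5), a sponge of Pumilio proteins, and Neat1 (350.9), the scaffold of paraspeckles. With them were Snhg8 (232.5) and Zfas1 (208.1). These RNAs were picked after their values were seen. The imprinted Meg3 read 200.3, 183.3, 97.7 and 76.7 on 4 of its 10 probe sets and was under the level on the other 6. Malat1 read 164.5 on its own probe set. Probe sets annotated to both Malat1 and Ramp2 read 885.1, 431.6, 67.5 and 37.9 and were left out of gene counts. The share of their signal that belongs to Malat1 was not tested, so Malat1 is not ranked against the RNAs above.

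Among the 100 brightest genes 24 were in no list. Those named after their values were seen include the galectins Lgals1 (984.7) and Lgals3 (909.2), the calcium-binding S100a4 (962.7) and S100a6 (904.9), the annexin Anxa2 (835.4), the gap junction protein Gja1 (817.8) and Ptgs2, the inducible enzyme of prostaglandin synthesis (807.8). Ptgs2 was bright on both of its probe sets, the dimmer reading 224.2, and Ptges, which makes prostaglandin E, read 125.6. The cyclins Ccnd2 and Ccnd1 read 386.7 and 313.6, beside mitosis genes of at most 38.0.

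Bright genes were read on probe sets open to related transcripts more often than genes at large, 14.9% against 7.76%.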
